A study of Mus musculus with 4 samples.

Results

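Intestinal identity transcription factors are the 8 genes Cdx1, Cdx2, Hnf4a, Hnf4g, Gata4, Gata5, Gata6 and Onecut2, taken by gene name from the 52459 genes in the table of read counts. All 8 were present and all 8 passed the filter on low counts, as did 13692 genes in all. The 4 libraries came from sorted intestinal stem cells (ISCs) of wild-type C57/Bl6 mice, 2 from young mice of 2 months (ISC_2mth) and 2 from old mice of 22 months (ISC_22mth). For each library, cells of 5 mice were combined, so a pool gives the average of its animals and the spread between animals was not measured and p-values refer to the spread between pools. All cells passed the same surface-marker gate, named SM6, which keeps EPCAM+, EPHB2high, CD44high, CD166+, CD24med and GRP78low cells of the small intestinal crypt and takes only cells without CD45 (a leukocyte antigen) and CD31 (an endothelial one). The comparison asks whether the factors that define intestinal epithelium were transcribed at different levels in young and old ISCs.

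CDX proteins are homeodomain factors that give the hindgut endoderm its intestinal fate, and loss of Cdx2 is known to let stomach-like programmes appear in the gut. HNF4 proteins are nuclear receptors that open enhancers of absorptive genes, GATA proteins are zinc finger factors that set regional identity along the small intestine, and Onecut2 is a cut-homeodomain factor of endodermal epithelia. These factors bind many of the same enhancers in crypt and villus, and mouse knockouts have shown that related members can partly replace each other.

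Start-site sequences are shown for Hnf4a, which took the most reads of the 8 and is known to be transcribed from a pair of alternative promoters, and for Cdx2, whose old pools differed most from each other. They are the 250 bases before a RefSeq start site (GRCm38.p6), 5′ to 3′ on the strand of the gene (plus for Hnf4a, minus for Cdx2), with capitals for the motif match found. Windows were matched by symbol for 3 of the 8 genes, and the window of Gata5 held no match.
Hnf4a, first start site, chr2:163506607-163506856: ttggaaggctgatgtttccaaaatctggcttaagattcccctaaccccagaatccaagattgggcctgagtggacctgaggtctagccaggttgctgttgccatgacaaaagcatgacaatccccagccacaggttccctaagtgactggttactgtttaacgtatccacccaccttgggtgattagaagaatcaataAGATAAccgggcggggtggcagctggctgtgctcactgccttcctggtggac
Hnf4a, second start site, chr2:163546905-163547154: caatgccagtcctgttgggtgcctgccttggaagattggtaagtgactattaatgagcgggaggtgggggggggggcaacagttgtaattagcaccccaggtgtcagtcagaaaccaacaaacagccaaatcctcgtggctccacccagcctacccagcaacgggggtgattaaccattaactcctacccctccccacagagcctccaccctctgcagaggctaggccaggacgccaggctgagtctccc
Cdx2, chr5:147307250-147307499: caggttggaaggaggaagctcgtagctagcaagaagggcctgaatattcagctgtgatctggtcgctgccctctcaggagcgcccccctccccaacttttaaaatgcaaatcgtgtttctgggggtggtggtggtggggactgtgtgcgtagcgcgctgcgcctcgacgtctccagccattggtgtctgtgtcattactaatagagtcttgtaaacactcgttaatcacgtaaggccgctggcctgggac
Motifs searched on both strands included TTTATG for CDX, AGATAA for GATA, CAAAGTCC for HNF4 and ATCGAT for ONECUT. The one match to these motifs was AGATAA in the first Hnf4a window, starting at base -52 from the RefSeq start site, a motif found in 9.99% of the 32851 promoter windows of this length. The remaining motifs named were held by 10.8% (CDX), 1.20% (HNF4) and 0.728% (ONECUT) of all windows, and no match says only that these letters were not in the window. GENCODE vM21 places the outermost starts of Cdx2 and Hnf4a further upstream than these RefSeq sites, so the Cdx2 window and the first Hnf4a window reach into the gene as GENCODE bounds it, the AGATAA match spans the GENCODE start of Hnf4a, and the second Hnf4a window lies inside the gene. The count of Hnf4a sums reads from both start sites, so use of one or the other was not measured.

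Total counts per library lay between 11662654 and 15975698, of which mitochondrially encoded genes took between 62.6% and 73.8%, more in both old pools than in both young pools. Counts were therefore normalized by TMM, a scaling on the bulk of genes, and levels are given as normalized CPM, the count scaled to a common library size. Stem cell markers were abundant in every pool, with Lgr5 between 206 and 248 CPM and Olfm4 between 1111 and 1302 CPM, and none of the 7 stem cell markers passed the test between ages. Axin2, a Wnt target, lay just outside the threshold, with 148.7 and 128 CPM in young and 102 and 98.6 CPM in old ISCs (log2 fold change -0.46, FDR = 0.051). The paper lists Axin2 as lower in old ISCs, by a different test. Of the 7 markers, 3 lay above 0 and 4 below. Among those above 0, Ascl2 had 42.5 and 43.6 CPM in young and 54.1 and 53.9 CPM in old ISCs (log2 fold change 0.33, FDR = 0.20). The pools also held secretory RNA, with goblet cell Muc2 between 1014 and 1441 CPM. The sum of 6 Paneth cell markers was 2062 CPM in old pool 1 against 925, 715 and 800 CPM in young pool 1, young pool 2 and old pool 2, so that old pool 1 stood apart. The 4 endothelial markers summed to at most 0.573 CPM and the 6 mesenchymal markers to at most 0.681 CPM, whereas the 8 leukocyte markers summed to 14.8 and 15.97 CPM in young and 22.4 and 22.8 CPM in old ISCs. Nearly all of the leukocyte sum came from Itgam (148 to 254 counts per pool, higher in old ISCs with FDR = 0.030) and Cd68 (22 to 63 counts), which went opposite ways. Cd68 had 4.35 and 2.72 CPM in young and 2.27 and 1.80 CPM in old ISCs (log2 fold change -0.79, FDR = 0.32), so the greater sum in old ISCs came from Itgam. The defining genes Cd79a, Itgax and Adgre1 had no read, and Ptprc, which encodes CD45, had at most 2.

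None of the 8 identity factors passed the test between young and old ISCs. After Benjamini-Hochberg adjustment over all genes (FDR) of edgeR's quasi-likelihood p-values, 0 of 8 had FDR under 0.05, against 2.26% of all genes tested (309 genes, 223 higher and 86 lower in old ISCs). An unadjusted p under 0.05 was reached by 1 of 8, Cdx1, against 16.9% of all genes tested. Limma voom with sample quality weights, DESeq2 and the likelihood ratio test each called 0 of 8, with 1 unadjusted p under 0.05 in each. The median log2 fold change (22 against 2 months) of the 8 was 0.033, beside -0.0049 for all genes tested, with 5 members above 0 and 3 below. Levels of the 2 ages did not overlap in 5 of 8 genes, a share close to the 47.6% of all genes tested. The summed level of the 8 factors was 694 and 696 CPM in the young pools and 643 and 713 CPM in the old pools. In 1 round of simulated counts for this comparison (13008 genes tested), changes were given to genes of low and high level alike. Of changes of 0.5 on the log2 scale 19.4% were recovered, of changes of 1 61.2% and of changes of 2 97.0%, beside 13 false calls. Smaller differences would thus often be missed, although these rates are not those of the 8 factors. In bulk samples, fewer cells of a type and less RNA per cell cannot be told apart.

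**Figure D1:**
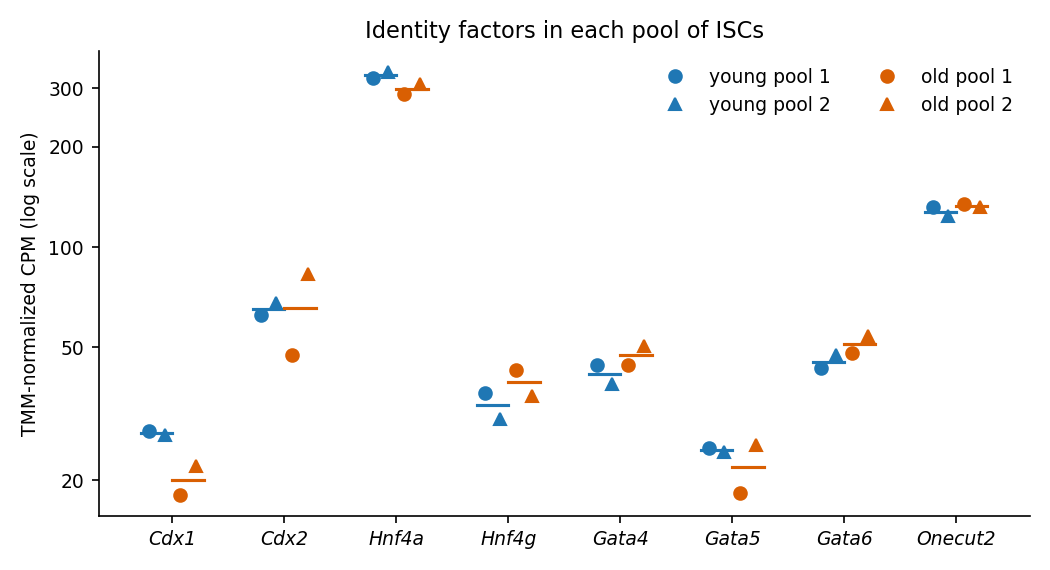
TMM-normalized CPM (log axis) of each factor in each pool, young pools in blue and old pools in orange, with a bar at the mean of 2 pools per age. Hnf4a lay highest in all pools, between 289 and 336 CPM, and the old pools of Cdx2 stood far apart at 47.6 and 83.4 CPM.

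Levels of different genes were compared per length, as CPM per kilobase of annotated exon. Hnf4a was highest with a mean of 65.0 over the 4 pools (range 59.8 to 69.6), and exceeded 99.1% of the 11192 protein-coding genes tested. Cdx2 followed with 28.9 (21.1 to 36.9), a range that did not overlap that of Hnf4a above it or of Hnf4g below it. Hnf4g with 13.9 (11.6 to 16.3), Cdx1 with 13.6 (10.3 to 16.1) and Gata4 with 11.4 (9.93 to 12.9) had overlapping ranges and were not separated. Onecut2 with 8.04 (7.62 to 8.30), Gata6 with 7.42 (6.67 to 8.34) and Gata5 with 7.10 (5.59 to 7.75) also overlapped one another, and all lay below Gata4. Even Gata5 exceeded 81.4% of protein-coding genes per length. Among 17 partner factors of the gut epithelium, Vdr, the vitamin D receptor, had 65.8 CPM per kilobase (59.2 to 72.1), overlapping Hnf4a, whereas Foxa2, a forkhead factor, had 0.857 (0.691 to 1.09).

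**Figure D2:**
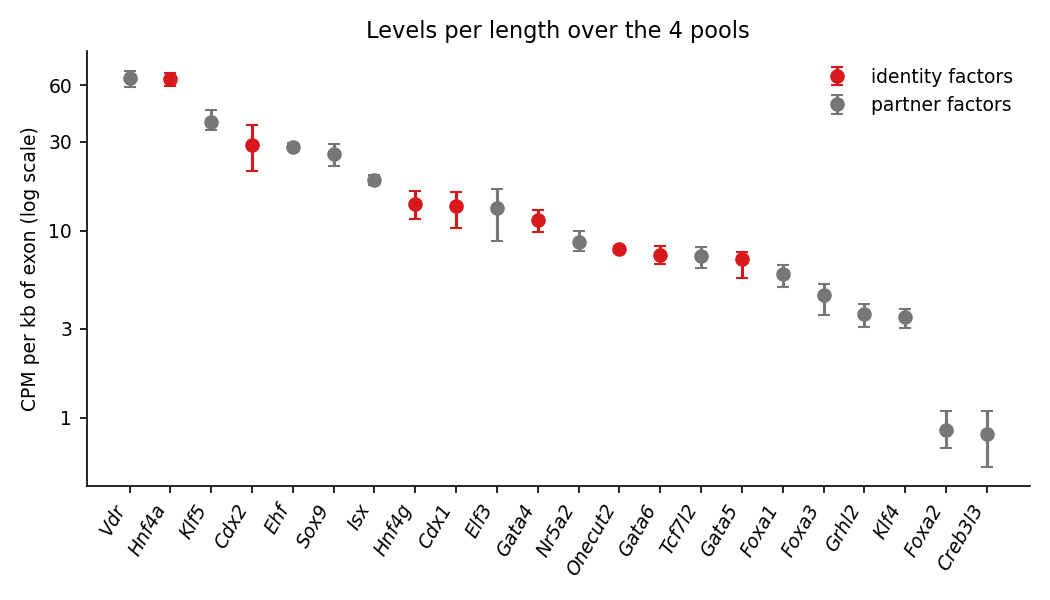
Mean CPM per kilobase of exon (log axis) over the 4 pools for the 8 identity factors (red) and partner factors (grey), with lines from the lowest to the highest pool. Identity factors spanned 7.10 to 65.0 and were interleaved with partner factors such as Klf5 and Sox9.

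Cdx1 showed the greatest age difference of the 8 and the only interval that left out 0. Cdx1, a homeodomain factor and Wnt target of the crypt, lies on chromosome 18 from 61018862 to 61036199 (minus strand, GRCm38, GENCODE vM21). Its counts were 408 and 411 in young pools 1 and 2 and 239 and 269 in old pools 1 and 2. After normalization these were 28.1 and 27.2 CPM in young and 18.1 and 22.0 CPM in old ISCs, so both old pools lay below both young pools. The log2 fold change was -0.47 (standard error 0.16, 95% interval -0.80 to -0.13), or 0.724-fold, with an unadjusted p of 0.0085 and FDR = 0.14 by edgeR's quasi-likelihood test. A larger log2 fold change in either direction was seen in 26.7% of all genes tested. Without old pool 2 the log2 fold change was -0.61 and passed the threshold (FDR = 0.032), a fit in which old ISCs are represented only by old pool 1, the pool with the high Paneth sum. It did not pass without old pool 1 (-0.33, FDR = 0.35), young pool 1 (-0.44, FDR = 0.48) or young pool 2 (-0.49, FDR = 0.26), and after correction for GC content and length it was -0.28 (FDR = 0.42). Cdx1 had the highest exonic GC content of the 8 genes, at 62.1%.

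Cdx2, the main determinant of intestinal fate, had the same mean level at both ages but divided the old pools. Cdx2 lies on chromosome 5 from 147300805 to 147307270 (minus strand). Its counts were 907 and 1025 in young and 629 and 1018 in old ISCs, and its normalized levels were 62.6 and 67.9 CPM in young and 47.6 and 83.4 CPM in old ISCs. Old pool 1 was the lowest and old pool 2 the highest of all, with both young pools between them. The means were 65.2 ± 3.78 and 65.5 ± 25.3 CPM (SD, n = 2 pools), and the log2 fold change was 0.0033 (standard error 0.18, 95% interval -0.37 to 0.38, FDR = 0.996 by edgeR's quasi-likelihood test). The old pools differed by 0.81 on the log2 scale, a gap exceeded by 2.06% of the 8300 genes with a mean of at least 5 CPM. Without old pool 2 the log2 fold change was -0.45 (FDR = 0.049), and without old pool 1 it was 0.35 (FDR = 0.13), so the direction depended on which old pool was used. Old pool 1, where Cdx2 was low, was also the pool with 2062 CPM of Paneth markers, and the part of these cells in the Cdx2 level was not tested. The gate takes CD24med cells, whereas Paneth cells are known for high CD24, and how many of them passed it was not measured.

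Hnf4a, on chromosome 2 from 163506808 to 163572910, was the most abundant factor and varied little. Its counts were 4663 and 5070 in young and 3816 and 3776 in old ISCs, which gave 322 and 336 CPM in young and 289 and 309 CPM in old ISCs. Both old pools lay below both young pools, by a small margin. The log2 fold change was -0.14 (standard error 0.11, 95% interval -0.36 to 0.09, FDR = 0.56), so that the interval reached from 0.777-fold to 1.07-fold. After correction for GC content and length it was -0.066, and without old pool 1 it was -0.087. Hnf4g, the paralogue on chromosome 3 from 3508030 to 3658052, had 530 and 459 counts in young and 567 and 438 in old ISCs. Its levels were 36.6 and 30.4 CPM in young and 42.9 and 35.9 CPM in old ISCs, and the ages overlapped. Its log2 fold change was 0.24 (95% interval -0.076 to 0.55, FDR = 0.45), and 0.075 with offsets for GC content and length. With 1 pool left out it was 0.37 without young pool 1 and 0.36 without old pool 2, but 0.10 without young pool 2 or old pool 1. Hnf4g had an exonic GC content of 42.9% against 54.1% for Hnf4a.

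The GATA factors showed no age difference past the threshold. Gata4, a factor of duodenum and jejunum on chromosome 14 from 63198922 to 63271692, had 642 and 585 counts in young and 587 and 617 in old ISCs. These gave 44.3 and 38.8 CPM in young and 44.4 and 50.5 CPM in old ISCs, with the upper young pool and the lower old pool nearly equal, and a log2 fold change of 0.19 (95% interval -0.095 to 0.48, FDR = 0.51). Gata6, expressed along the whole bowel and located on chromosome 18 from 11052064 to 11085635, had 629 and 714 counts in young and 635 and 663 in old ISCs, or 43.4 and 47.3 CPM in young and 48.1 and 54.3 CPM in old ISCs. Its log2 fold change was 0.17 (95% interval -0.11 to 0.45, FDR = 0.55). Gata5, on chromosome 2 from 180325133 to 180334699, had 363 and 367 counts in young and 242 and 310 in old ISCs, or 25.0 and 24.3 CPM in young and 18.3 and 25.4 CPM in old ISCs. As for Cdx2, old pool 1 was the lowest and old pool 2 the highest, although the gap of 0.47 on the log2 scale was exceeded by 12.4% of genes. The log2 fold change of Gata5 was -0.18 (95% interval -0.53 to 0.18, FDR = 0.64), and it became 0.042 without old pool 1. With 1 pool left out, Gata4 ran from 0.096 to 0.29, lowest without young pool 2 (0.10 without old pool 2), and Gata6 from 0.085 to 0.26, lowest without old pool 2 (0.11 without young pool 1). After correction for GC content and length, the log2 fold changes were 0.33 for Gata4, 0.24 for Gata6 and -0.060 for Gata5, none past the threshold (FDR between 0.25 and 0.91).

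Onecut2 had a log2 fold change nearer 0 than any other of the 8 but Cdx2, and its pools lay close together. It lies on chromosome 18 from 64340020 to 64400987 and has 16.2 kb of annotated exon, so that its many reads correspond to a modest level per length. Its counts were 1910 and 1867 in young and 1781 and 1613 in old ISCs, or 132 and 124 CPM in young and 135 and 132 CPM in old ISCs. The old pools lay above the young pools by a margin smaller than the gap between the young pools. The log2 fold change was 0.063 (standard error 0.12, 95% interval -0.18 to 0.31, FDR = 0.83 by edgeR's quasi-likelihood test). With 1 pool left out it ran from 0.015 without young pool 2 to 0.11 without young pool 1.

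**Figure D3:**
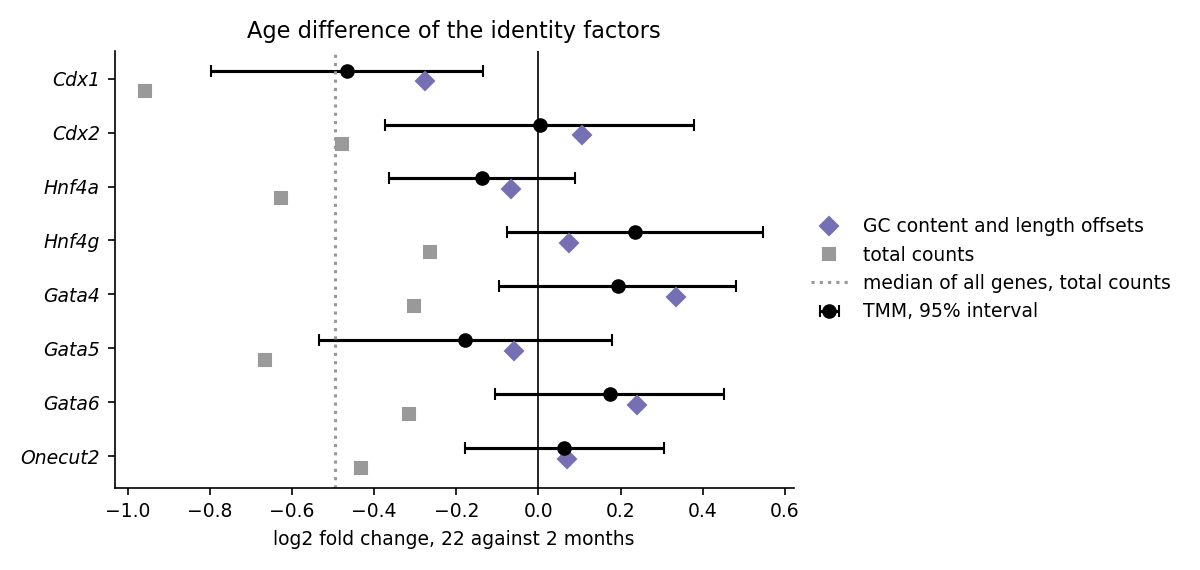
Log2 fold change of each factor (22 against 2 months) after TMM with its 95% interval (black), with offsets for GC content and length (purple diamonds) and after scaling by total counts (grey squares), with the median of all genes under total counts as a dotted line. The interval of Cdx1 alone lay below 0, and under total counts all 8 values moved below 0 along with the median of all genes at -0.50.

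Scaling by total counts, in which mitochondrial reads weigh in full, moved the median of all genes tested by -0.50 on the log2 scale. The mitochondrial share was greater in both old pools, and its part in this shift was not tested. Under total counts all 8 factors were below 0. The threshold was passed by 5 (Cdx1, Cdx2, Hnf4a, Gata5 and Onecut2), beside 33.3% of all genes tested called lower. Relative to the shift of all genes, the log2 fold changes were -0.46 for Cdx1, 0.016 for Cdx2, -0.13 for Hnf4a and 0.064 for Onecut2, as after TMM.

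Shares within a family compare genes inside one library and do not depend on scaling between libraries. Of the reads of the CDX family, Cdx1 took 31.0% and 28.6% in young ISCs (95% Wilson intervals 28.6 to 33.6% and 26.3 to 31.0%). In old ISCs it took 27.5% and 20.9% (24.7 to 30.6% and 18.8 to 23.2%), so both old pools lay below both young pools and the interval of old pool 2 overlapped none of the others. The interval of old pool 1 overlapped those of both young pools. The low share in old pool 2 went with its high Cdx2 (83.4 CPM), since Cdx1 itself was higher there (22.0 CPM) than in old pool 1 (18.1 CPM). Hnf4g took 10.2% and 8.30% of HNF4 reads in young and 12.9% and 10.4% in old ISCs, where young pool 1 and old pool 2 had overlapping intervals. Gata5 took 22.2% and 22.0% of the reads of Gata4, Gata5 and Gata6 in young and 16.5% and 19.5% in old ISCs, whereas Gata4 (35.1 to 40.1% over the 4 pools) and Gata6 (38.5 to 43.4%) shared the rest. Per length, Gata5 took 29.8% and 30.1% in young and 23.0% and 26.7% in old ISCs, and Gata6 was then the smallest in both young pools, with 26.0% and 29.5%. Wilson intervals cover counting error only, since copies made by amplification were not marked. No test of the shares was run, and an exact two-sided permutation test of 2 against 2 pools could not give a p below 0.333.

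**Figure D4:**
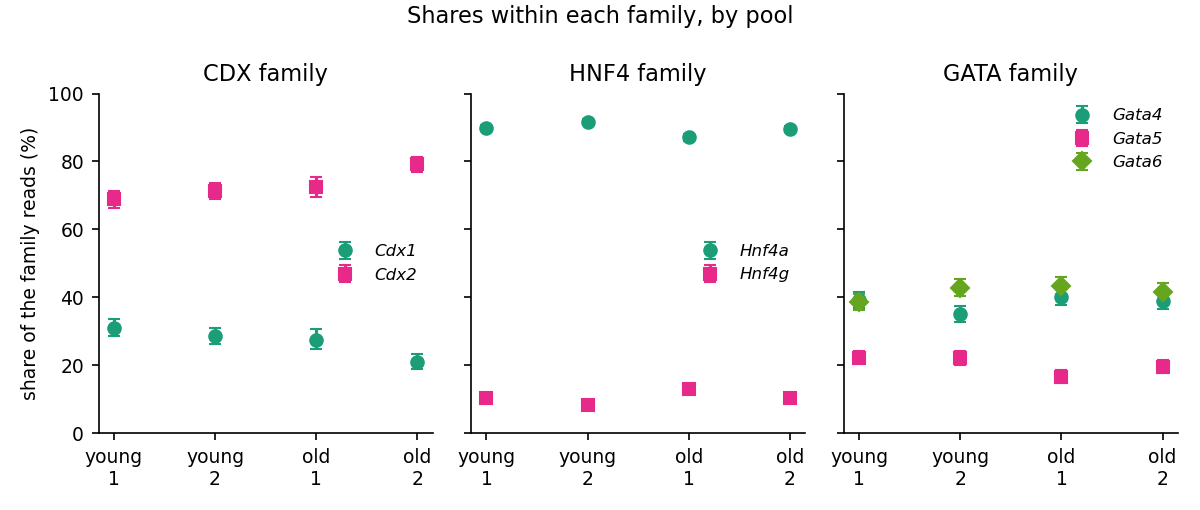
Share of each gene in the reads of its family (%), by pool, with 95% Wilson intervals for counting error. Cdx2 took between 69.0 and 79.1% of CDX reads, Hnf4a between 87.1 and 91.7% of HNF4 reads, and Gata5 the smallest share of raw reads of the 3 GATA genes in every pool.

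Of 8 listed relatives and cofactors of the factors, 7 were near silent. Cdx4, Gata2, Onecut1 and the GATA cofactor gene Zfpm2 had no read in any pool, while Gata1, Gata3 and Onecut3 had at most 2 reads in a pool, where 3 reads would correspond to between 0.199 and 0.246 CPM. The cofactor gene Zfpm1 was the one relative tested, with 13.0 and 12.4 CPM in young and 10.1 and 10.7 CPM in old ISCs (log2 fold change -0.29, FDR = 0.49). Of 15 genes of neighbouring organs, 8 had no read (Barx1, Gkn1, Gkn2, Tff1, Muc5ac, Cldn18, Trp63 and Ptf1a), so that defining genes of stomach surface and squamous epithelium were undetected at this depth in both ages. Other genes of this list were detected, with Muc6 at 59 and 17 counts in young and 96 and 11 in old ISCs. Pgc had 43 and 24 counts in young and 24 and 37 in old ISCs, and neither gene passed the threshold (FDR = 0.62 and 0.95). Pdx1, a duodenal factor, had 3.24 and 3.31 CPM in young and 1.44 and 3.52 CPM in old ISCs (FDR = 0.66).

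Of the 17 partner factors, 16 were tested and 0 passed the threshold, with a median log2 fold change of -0.12, 5 above 0 and 11 below. Tcf7l2, the nuclear effector of Wnt signalling, had 71.7 and 70.4 CPM in young and 59.6 and 55.3 CPM in old ISCs, a log2 fold change of -0.31 (FDR = 0.21). Sox9, a factor of crypt progenitors, had 112 and 120.1 CPM in young and 91.9 and 100.2 CPM in old ISCs, a log2 fold change of -0.28 (FDR = 0.25). Both old pools lay below both young pools for these genes, whereas the ages overlapped for the epithelial ETS factor gene Elf3, with 29.7 and 37.1 CPM in young and 19.5 and 30.7 CPM in old ISCs (log2 fold change -0.41, FDR = 0.26).

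Some listed targets of the factors rose in old ISCs. These lists were chosen with earlier results of these data known, so the shares called are description only. Of 14 HNF4 target genes tested, 3 rose and 0 fell, with a median log2 fold change of 0.32, beside 1.63% of all genes tested called higher and a median of -0.0049. Called or not, 11 of the 14 lay above 0 and 3 below. Of 11 CDX2 target genes, 1 rose and 0 fell, with a median of 0.13. Fabp1, a fatty acid-binding protein, had 18.1 and 16.6 CPM in young and 117 and 59.8 CPM in old ISCs, which gave 2.35 ± 0.21 (standard error) as log2 fold change with FDR = 2.4e-06. Fabp2, another such protein, had 161 and 264 CPM in young and 407 and 401 CPM in old ISCs (log2 fold change 0.93, FDR = 0.0040). Apob, the structural protein of chylomicrons, had 312 and 300 CPM in young and 454 and 427 CPM in old ISCs (log2 fold change 0.53, FDR = 0.013). The disaccharidase gene Sis had 32.2 and 35.1 CPM in young and 103 and 71.1 CPM in old ISCs (log2 fold change 1.38, FDR = 3.4e-05). The remaining targets did not pass the threshold, among them the efflux pump gene Abcb1a (log2 fold change 0.52, FDR = 0.079), the intestinal cadherin gene Cdh17 (log2 fold change 0.31, FDR = 0.15) and the apolipoprotein gene Apoa1 (log2 fold change 0.85, FDR = 0.17). The paper, which used limma voom, lists Cdh17 as higher in old ISCs. Whether the change of a target differed from that of its factor was not tested.

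**Figure D5:**
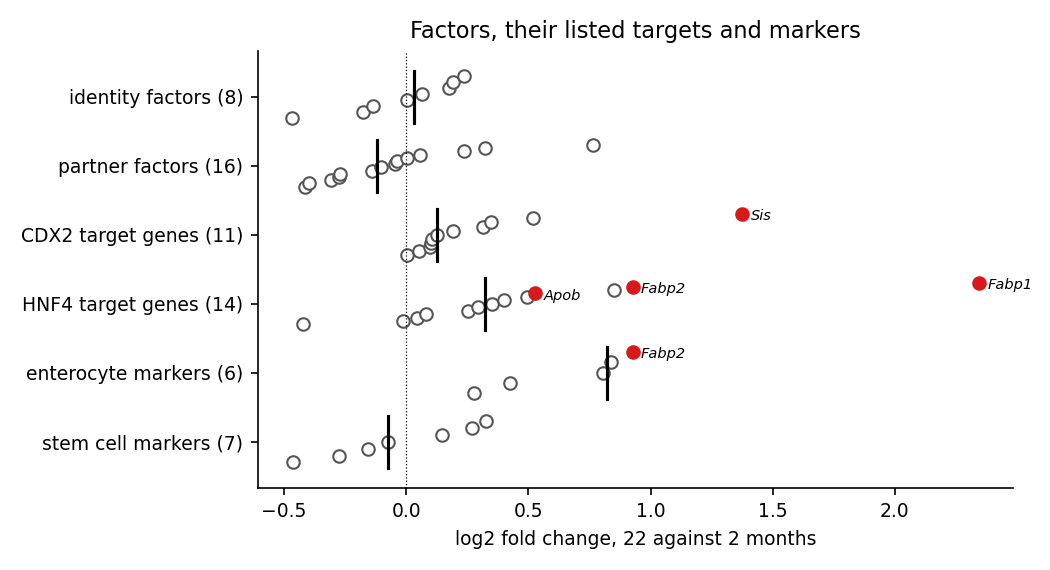
Log2 fold change (22 against 2 months) of tested genes in 6 lists, with the number tested in parentheses, filled red points for FDR under 0.05 and a bar at the median of each list, which covers all genes tested although a few are not drawn. No identity factor, partner factor or stem cell marker was called, whereas Fabp1, Fabp2, Apob and Sis were called among the targets.

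Enterocyte markers moved with these targets. Fabp2 stands in both lists. All 6 had a log2 fold change above 0, with a median of 0.82, and 2 rose, among them Fabp2, beside 1.63% of all genes tested called higher. Their summed level was 344 and 471 CPM in young and 672 and 687 CPM in old ISCs, and the part of more differentiated cells in the rise of the targets was not tested. Regional genes were read beside the same 1.63% of genes called higher. Of 6 proximal genes tested, Fabp1 and the retinol-binding gene Rbp2 (6.76 and 6.56 CPM in young, 14.5 and 11.9 CPM in old ISCs, FDR = 0.020) rose, and of 4 distal genes tested 0 were called, with Fabp6 at 5.86 and 12.2 CPM in young and 19.1 and 11.2 CPM in old ISCs (FDR = 0.18). The medians of the log2 fold changes were 0.74 for the proximal and 0.76 for the distal list.

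Of other marker lists, again beside 1.63% of all genes tested called higher, 2 of 6 Paneth cell markers (Defa17 and Defa24), 1 of 3 tuft cell markers tested (Dclk1) and 1 of 2 leukocyte markers tested (Itgam) rose, while 0 of 6 goblet and 0 of 5 enteroendocrine markers were called. The Paneth sum was high in old pool 1 alone, with old pool 2 at 800 CPM inside the range of the young pools. The genes whose pattern over the 4 pools was most like that of Cdx1, the factor of lowest p, were Trrap, Gm10033 and Rnpep, at a root mean square difference of 0.014, 0.014 and 0.019 on the log2 scale among 8299 genes compared.

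Reads were assigned to the 8 factors with little overlap from other genes. No 50-base stretch of the transcripts of Cdx1, Cdx2, Hnf4a, Hnf4g or Gata4 occurred in transcripts of another gene. Exons of Gata5 overlap those of Gata5os on the opposite strand over 258 bases, and exons of Gata6 overlap those of 1010001N08Rik on the opposite strand over 93 bases. The counting method does not name a strand setting, so the origin of reads in these overlaps is not known. Gata5os had between 20 and 39 counts per pool and 1010001N08Rik between 152 and 190, and the antisense gene Hnf4aos, whose exons do not overlap those of Hnf4a, had at most 4.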

How the data were processed

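RNA of sorted ISCs was amplified by SPIA, which covers whole transcripts, and sequenced as single-end reads. According to the paper and the processing notes, the authors trimmed reads (Trimmomatic 0.30), aligned them to GRCm38 (STAR 2.4.2a) and counted exonic reads of GENCODE vM15 genes (featureCounts). The deposited values are raw counts per gene, not normalized. Groups and replicate numbers came from the sample labels. Nothing pairs pools of the same number (correlation of their deviations over genes -0.00015).

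A gene was tested if any pool exceeded both 5 reads and 1 CPM for it, and ages were compared across all 13692 genes with edgeR 4.0.16 in R 4.3.3 (TMM, glmQLFit, glmQLFTest, Benjamini-Hochberg adjustment, FDR 0.05). Intervals used the Wald standard error of this fit and its degrees of freedom (18.8 for the factors). Alternatives included limma 3.58.1, DESeq2 1.42.0, other scalings and filters, and offsets for exonic GC content and length (lowess, span 0.3, 3 iterations, GENCODE vM21 on GRCm38). The paper's own list of age differences, from limma voom with sample quality weights, is longer than the one here, so some calls differ. Fits were tested on simulated counts. Counts of the pools of an age were compared only to see whether one library had been deposited as a pair, and they were not alike (chi-square per gene 10.3 and 7.53). Members and lists were chosen with earlier results of these data known. Genes named are the 8 factors, the at most 5 list members of lowest p with any that passed FDR 0.05, genes overlapping a factor, and the 3 nearest to Cdx1 in pattern. Lgr5, Olfm4, Vdr, genes at or near 0 reads and the remaining examples were chosen after their values were seen. Some list genes that this rule names are not reported here.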

Additional observations from a re-analysis of the deposited data

How the results depend on the processing

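The 0 identity factors called stayed 0 under every alternative but scaling by total counts (5 called) and leaving out 1 pool (0 to 2 called, the 2 being Cdx1 and Cdx2 without old pool 2). Over all genes, 309 were called, against 197 with DESeq2, 611 with the likelihood ratio test, 4650 with total counts (96 higher, 4554 lower), 554 without a filter, 195 with GC content and length offsets, and 151 to 710 with 1 pool left out. List genes called numbered 10, against 6 with DESeq2, 32 with total counts, 19 without a filter and 9 to 27 with 1 pool left out. With the replicate block, 623 genes, 21 list genes and 0 identity factors were called, and same-numbered pools share only a number. The log2 fold change of Cdx2 turned below 0 with voom (-0.0585), RLE (-0.000978), upper quartile scaling (-0.0395), total counts (-0.479), no filter (-0.00832), filterByExpr (-0.00266) and the replicate block (-0.0437), and ran from -0.453 to 0.355 with 1 pool left out. Under total counts, Hnf4g (-0.265), Gata4 (-0.302), Gata6 (-0.314) and Onecut2 (-0.432) turned below 0, as did the median of all genes, and Gata5 ran from -0.428 to 0.0423 with 1 pool left out. Where 1 pool is left out, the lone pool of its age is assumed to vary like the other age. The cause of these shifts was not tested. The 95% intervals of the factors reached 0.228 to 0.376 on the log2 scale to either side, so differences within them were not resolved by 2 pools per age. These intervals rest largely on spread shared across genes, since the design leaves 2 residual degrees of freedom. For Cdx2 the standard error was 0.18 here and 0.399 with DESeq2, so its interval may be too narrow.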
